A study of Mus musculus with 8 samples.

Results

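The 10 genes described here build and remodel the actin cytoskeleton: Actb, Actg1, Pfn1, Tmsb4x, Tmsb10, Cfl1, Arpc1b, Arpc2, Actr2 and Coro1a. They were chosen by name for their role, not for their values, and were found by symbol in the deposited normalised table and by mapped Ensembl identifier in the 8 library tables. The library tables hold all 10 among 17580 gene identifiers, and the normalised table holds 9 among 6933 genes, without Actg1. In the cells the authors assigned to a cell type, 14517 genes had at least 1 unique molecular identifier (UMI, a tag that counts each captured RNA molecule once), and all 10 were among them.

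Actin monomers join into filaments that give a cell its shape, its cortex and its power to crawl. Profilin loads monomers for growth at filament ends, thymosins hold monomers in reserve, cofilin cuts and takes apart old filaments, and the ARP2/3 complex starts new filaments as branches on existing ones. Lymphocytes and macrophages use this cycle for migration, for contacts with other cells and for engulfment, and coronin 1A, encoded by Coro1a, is a regulator of ARP2/3-made networks in blood cells.

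The study measured single-cell RNA in tumours of 4T1, a mouse mammary carcinoma line, grown for 10 days under the skin of Balb/c mice. Tumours were dissociated for 1 h with a protease from Bacillus licheniformis in 4 groups: at 37C with the transcription inhibitor actinomycin D (2 nM), at 37C without it, at 4C with it, and at 4C without it. The protease, the tumour line, the mouse strain, red-cell lysis, and the removal of debris and dead cells were shared by all groups, and cells were kept on ice after dissociation. The labels tie the warm groups to a dissociator with heaters and the cold groups to one without, so the temperature and the instrument cannot be told apart. Each group was 1 suspension pooled from 6 tumour pieces of different mice and was run as 2 libraries, aliquots A and B. The spread between them is therefore technical, and every p-value below measures a difference between suspensions against that spread, not against the spread between mice.

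The 8 libraries hold 23980 barcodes, of which the authors assigned 654 to a type: 154 T cells, 66 NK cells, 109 macrophages and 325 tumour cells. Per library, 34 to 115 cells carried a type, with 158314 to 199929 UMIs in the 37C libraries and 23212 to 65149 UMIs in the 4C libraries. The 4C libraries were thus shallower, and T and NK cells together gave 5.63% to 27.8% of these UMIs at 37C and 28.3% to 40.9% at 4C. Of the barcodes of assigned cells, 1 occurred in several libraries. All 11 T cell markers were detected in T cells, all 9 NK markers in NK cells and all 11 macrophage markers in macrophages. The lymphocyte types also shared markers: NK cells held 211 UMIs of the T cell list, with all 11 markers detected, and T cells held 177 UMIs of the NK list. Of 10 epithelial markers, 6 were detected in tumour cells (953 UMIs, mostly Krt18 and Krt8), while Epcam, Krt14, Cdh1 and Cldn7 were at 0 there. In tumour cells, 30 of 325 held more leukocyte than epithelial marker UMIs, 16 of them in 37C inhibitor library B, and 81 of 325 held 0 epithelial marker UMIs. In macrophages, 9 of 109 cells held 1030 of the 1033 mast cell and basophil marker UMIs.

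Among the 10 genes, Tmsb4x and Coro1a differed most between the cell types, and they were also the only ones to pass the test of temperature when all assigned cells were summed. Their promoters are shown for that reason, from RefSeq (GRCm38.p6), each covering 250 bases before to 50 bases after an annotated start on the minus strand; capitals mark GC boxes (GGGCGG on either strand), the one searched motif present in both.
Coro1a, chr7:126704767-126705066: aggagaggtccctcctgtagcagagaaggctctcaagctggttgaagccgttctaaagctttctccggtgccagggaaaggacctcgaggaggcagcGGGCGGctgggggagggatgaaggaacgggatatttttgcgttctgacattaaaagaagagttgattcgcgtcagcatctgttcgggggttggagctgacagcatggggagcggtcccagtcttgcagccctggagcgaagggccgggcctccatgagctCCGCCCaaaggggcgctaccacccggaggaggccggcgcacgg
Tmsb4x, chrX:167209169-167209468: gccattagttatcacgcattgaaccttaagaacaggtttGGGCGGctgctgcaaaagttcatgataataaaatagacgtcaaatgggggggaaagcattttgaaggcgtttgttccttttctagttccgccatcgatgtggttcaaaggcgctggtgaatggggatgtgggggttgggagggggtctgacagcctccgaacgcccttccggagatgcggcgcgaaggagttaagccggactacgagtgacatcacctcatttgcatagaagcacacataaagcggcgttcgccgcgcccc
The Coro1a promoter holds 2 GC boxes and the Tmsb4x promoter 1, and neither holds CCAAT or TATAAA. RefSeq gives 12 promoters for 9 of the 10 genes; Actb was not searched. A GC box occurs in all 12, and in 35.7% of 32851 mouse promoters of the same length. CCAAT occurs in 3 of the 12, from Actg1, Actr2 and Cfl1, against 37.4% of all promoters, and TATAAA in 0 of the 12, against 13.6%. CACTTCC, an ETS-type motif, occurs in promoters of 4 genes, Arpc1b, Arpc2, Cfl1 and Pfn1, against 11% of all promoters. A CArG box, the element that serum response factor is known to bind in actin genes, occurs in 1, from Actg1, against 1.63%. All motifs were searched on both strands, and such matches describe the letters only.

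Levels are given in CPM, the UMIs of a gene per 1000000 UMIs of the same cells. Each UMI stands for 1 captured 3′ end, so these levels are not divided by gene length. The levels by cell type are a description without a test, because the cells of different types came from the same libraries and the types were assigned from the same data.

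Both lymphocyte types and the macrophages held more RNA of these genes, relative to all their RNA, than the tumour cells did. The 10 genes together made up 2.63% to 3.66% of UMIs in T cells, 2.57% to 4.44% in NK cells, 1.62% to 3.54% in macrophages and 0.778% to 1.12% in tumour cells over the 8 libraries. The lowest library of each immune type thus stood above the highest library of tumour cells. Of the 9 genes measured well enough, 8 were lowest in tumour cells when the libraries were pooled. The exception was Tmsb10, which was lowest in macrophages.

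**Figure D1:**
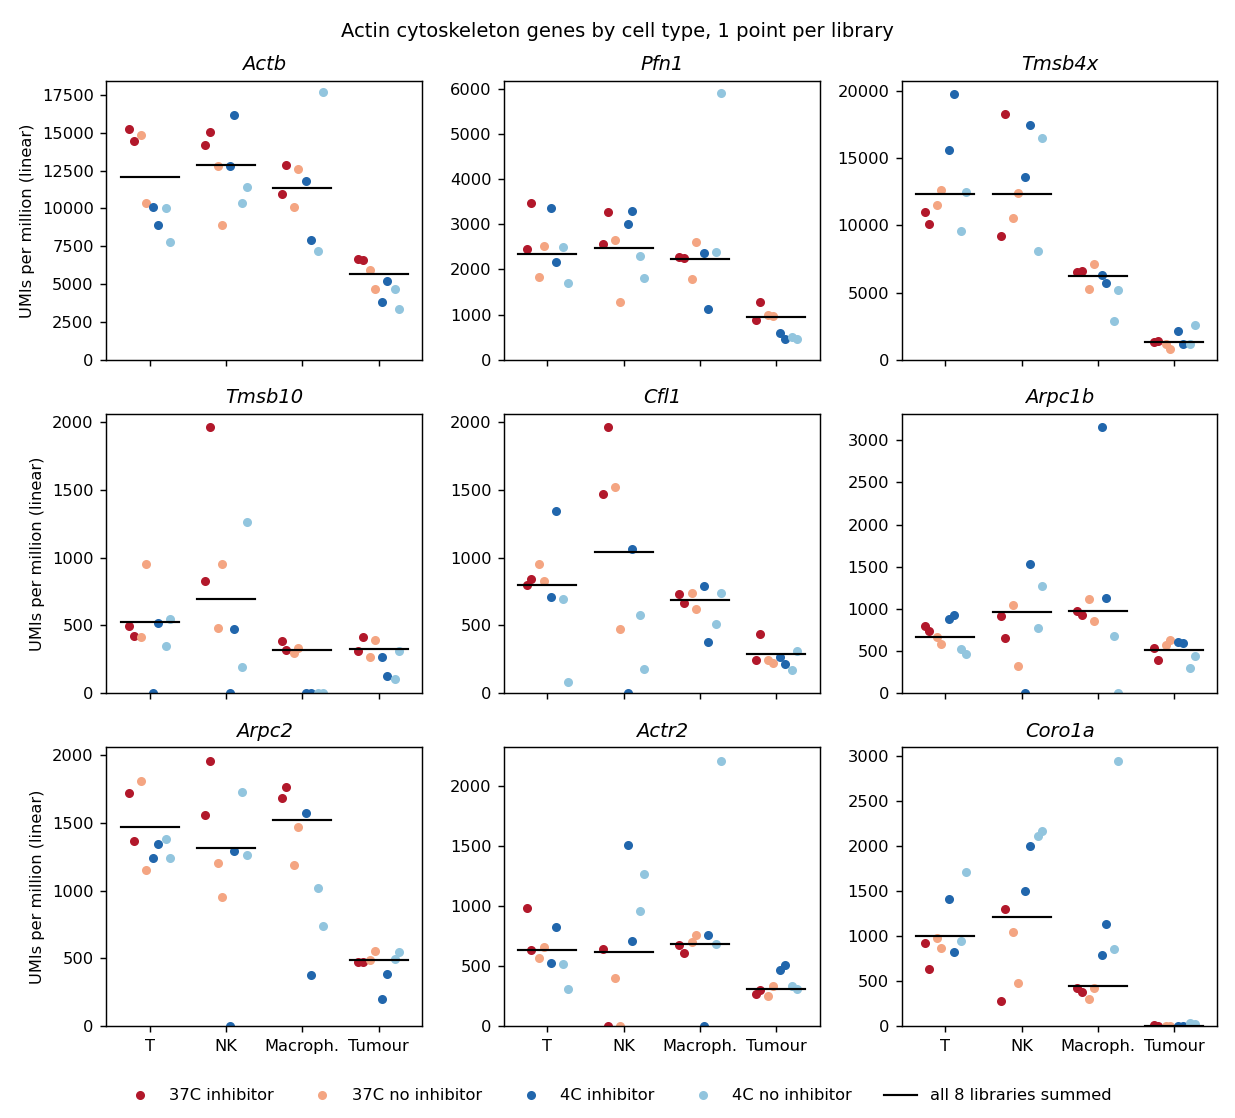
CPM (linear axis) of 9 actin cytoskeleton genes in T cells, NK cells, macrophages and tumour cells; each point is 1 of 8 libraries, coloured by group, and black lines are the 8 libraries summed. Tumour cells sit lowest for Actb, Pfn1, Tmsb4x and Coro1a in every library, and the points of NK cells and macrophages rest on as few as 2 and 1 cells in a library.

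Actb, on chromosome 5 (142903115 to 142906754, minus strand, GRCm38), encodes beta actin, the main non-muscle actin. Its pooled level was 12060 CPM in T cells, 12845 CPM in NK cells, 11347 CPM in macrophages and 5654 CPM in tumour cells (95% Poisson interval 11449 to 12694 in T cells and 5463 to 5851 in tumour cells; such intervals cover counting error only). It was higher in each immune type than in tumour cells in 8 of 8 libraries, by 2.13-fold in T cells, 2.27-fold in NK cells and 2.01-fold in macrophages. T cells, NK cells and macrophages were not ordered among themselves: T cells exceeded NK cells in 3 libraries and macrophages in 5. Of the 50-base stretches in its last 300 bases, 8.37% also occur in Lrrc58, which had 44 UMIs. By UMIs, Actb ranked 3 of all genes in T cells, 2 in NK cells, 2 in macrophages and 8 in tumour cells.

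Actg1, on chromosome 11 (120345690 to 120348542, minus strand), encodes gamma actin, the second non-muscle actin. It had 3 UMIs in all assigned cells, 1 each in 37C inhibitor B, 37C no inhibitor B and 4C inhibitor B, and was at 0 in the other 5 libraries. Of these, 1 UMI fell in a T cell and 2 in tumour cells. In macrophages 0 of 148494 UMIs allows a level of up to 20.2 CPM, and in NK cells 0 of 51771 UMIs allows up to 57.9 CPM. Gamma actin is abundant in most cells, so the near absence of its counts was set against shared sequence: none of the 50-base stretches in its last 300 bases occurs in another annotated gene. How the reads of Actg1 were assigned upstream was not tested, and the gene enters no comparison.

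Pfn1, on chromosome 11 (70651850 to 70654644, minus strand), encodes profilin 1. Its pooled level was 2333 CPM in T cells, 2472 CPM in NK cells, 2243 CPM in macrophages and 939 CPM in tumour cells. As for Actb, each immune type exceeded tumour cells in 8 of 8 libraries, and the library ranges of the 3 immune types overlapped.

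Tmsb4x, on chromosome X (167207093 to 167209315, minus strand), encodes thymosin beta 4, the main monomer-holding peptide. Its pooled level was 12323 CPM in T cells (95% Poisson interval 11707 to 12964), 12285 CPM in NK cells (11349 to 13278), 6222 CPM in macrophages (5828 to 6637) and 1322 CPM in tumour cells (1230 to 1419). This made 3 steps: T and NK cells at one level, macrophages below both in 8 of 8 libraries, and tumour cells below macrophages in 8 of 8 libraries. The ratio to tumour cells was 9.32 in T cells, 9.29 in NK cells and 4.71 in macrophages. Its rank by UMIs was 2 in T cells, 3 in NK cells, 8 in macrophages and 84 in tumour cells. In the barcodes under 100 UMIs, too few for a cell and used here as a measure of free RNA, Tmsb4x stood at 4937 CPM, above its level in tumour cells. The part of free RNA in the tumour cell value was not tested.

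Tmsb10, on chromosome 6 (72957347 to 72958748, minus strand), encodes thymosin beta 10, a close relative of thymosin beta 4 with the same monomer-holding role. It stood at 528 CPM in T cells, 695 CPM in NK cells, 317 CPM in macrophages and 326 CPM in tumour cells. Macrophages and tumour cells did not differ beyond their spread: macrophages were higher in 2 libraries and lower in 6, with a pooled ratio of 0.97. Without the 9 mast-marker-rich cells, macrophages had 341 CPM and stood above tumour cells. Of the 50-base stretches in its last 300 bases, 77.7% also occur in Gm9844, which had 0 UMIs.

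Cfl1, on chromosome 19 (5490455 to 5495201, plus strand), encodes cofilin 1, which severs filaments. It stood at 800 CPM in T cells, 1043 CPM in NK cells, 687 CPM in macrophages and 288 CPM in tumour cells. Macrophages exceeded tumour cells in 8 of 8 libraries, T cells in 7 and NK cells in 6.

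The ARP2/3 members differed among themselves. Arpc2, on chromosome 1 (74236084 to 74268209, plus strand), encodes a core structural subunit and stood at 1467 CPM in T cells, 1313 CPM in NK cells, 1522 CPM in macrophages and 489 CPM in tumour cells. Actr2, on chromosome 11 (20062304 to 20112913, minus strand), encodes Arp2, an actin-related protein that forms the base of the new branch, and stood at 635, 618, 687 and 309 CPM in the same order of types. Both were about equal in the 3 immune types and higher there in at least 6 of 8 libraries than in tumour cells.

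Arpc1b, on chromosome 5 (145114215 to 145130705, plus strand), encodes a subunit known as the form of ARPC1 that blood cells rely on. It stood at 668 CPM in T cells, 966 CPM in NK cells, 970 CPM in macrophages and 505 CPM in tumour cells. Of the 9 genes its T cell level was nearest to that of tumour cells, at 1.32-fold, and in 7 of 8 libraries it was lower in T cells than in macrophages. On the mean of the deposited normalised values it was no longer lowest in tumour cells.

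Coro1a, on chromosome 7 (126699773 to 126707787, minus strand), was the most unequal of the 9. It stood at 1006 CPM in T cells (95% Poisson interval 835 to 1201), 1217 CPM in NK cells (935 to 1557), 444 CPM in macrophages (344 to 565) and 6.87 CPM in tumour cells (1.87 to 17.6). The tumour cell value rests on 4 UMIs among 582389. Macrophages lay below NK cells in 6 of 8 libraries and below T cells in 6. T cells lay below NK cells in 6 of 8 libraries, with overlapping intervals. Barcodes under 100 UMIs had 292 CPM of Coro1a, so the tumour cell value lay far below that of free RNA.

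To set these ratios against other genes, all 710 genes with at least 200 UMIs in assigned cells were compared, with 1 UMI added to each sum. That filter counts all types together, and tumour cells gave most of the UMIs, so it favours genes held in tumour cells. Coro1a passed it almost wholly through the immune types. The shares below are therefore a description of this set of genes. In T cells, 7 of the 9 genes stood more than 1 log2 unit above tumour cells, as did 13.8% of the 710 genes, and the medians were 1.31 for the 9 and −0.21 for the 710 on the log2 ratio scale. In NK cells it was 8 of 9 against 14.4%, with medians of 1.40 and −0.23. Actr2 is among these 8 only through the added UMI, as its pooled ratio was 1.99988 without it. In macrophages it was 7 of 9 against 19.4%, with medians of 1.26 and −0.33.

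Over the 23 sums of 1 library and 1 type with at least 10 cells, the genes closest in pattern to each of 4 members were named by Pearson correlation of log2 CPM, as a description, since these sums share libraries and depth. Closest to Actb were Itgb2 (r = 0.906), an integrin chain of leukocytes, Ptp4a2 (0.892) and Sh3bgrl3 (0.860). Closest to Tmsb4x were Cd52 (0.963), Ptpn18 (0.960) and Ptprc (0.959), the pan-leukocyte antigen CD45. Closest to Cfl1 were Cotl1 (0.748), a coactosin, Cd52 (0.741) and Fxyd5 (0.733). Closest to Coro1a were Ptprc (0.968), Lcp1 (0.966), a leukocyte filament bundler, and Rac2 (0.959). Tumour cell sums are among the 23, so r also carries the difference between immune types and tumour cells. Coro1a had 0 to 2 UMIs in each tumour cell sum, and with 1 count added its values there follow depth. Among the members themselves, r was 0.961 for Tmsb4x with Coro1a and 0.908 for Actb with Pfn1.

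Temperature was compared first over all assigned cells, summed per library, as the mean of the difference with and without inhibitor. In such sums a shift in the share of a cell type and a change of RNA within cells cannot be told apart. With edgeR's quasi-likelihood test and Benjamini-Hochberg adjustment over 3391 genes, 135 genes (3.98%) passed an adjusted p of 0.05. Of the 9 actin genes tested, 2 passed, both lower at 37C: Coro1a and Tmsb4x. The median log2 fold change was 0.26 over the 9 genes and 0.04 over all genes tested.

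Coro1a had 215 and 107 CPM in the 37C inhibitor libraries A and B, 328 and 201 CPM in 37C without inhibitor, 474 and 631 CPM in 4C with inhibitor, and 531 and 599 CPM in 4C without inhibitor. All 4 libraries at 37C lay below all 4 at 4C. The log2 fold change was −1.39 ± 0.28 (SE; n = 4 libraries at each temperature, adjusted p = 0.00549, edgeR). It was −1.70 ± 0.42 with inhibitor (adjusted p = 0.0341) and −1.09 ± 0.37 without it (adjusted p = 0.244). Without 4C inhibitor library B the averaged value was −1.09 and its adjusted p was 0.131, and the call with inhibitor was lost without 37C inhibitor B, 4C inhibitor A or 4C inhibitor B. Barcodes under 100 UMIs had 262 CPM of Coro1a at 37C and 363 CPM at 4C.

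Tmsb4x had 3941 and 2866 CPM in 37C with inhibitor, 4655 and 3822 CPM in 37C without, 6290 and 8593 CPM in 4C with inhibitor, and 3907 and 5787 CPM in 4C without. The temperatures overlapped, through 4C no inhibitor library A. The log2 fold change was −0.61 ± 0.16 (adjusted p = 0.0281), made of −1.03 ± 0.22 with inhibitor (adjusted p = 0.0170) and −0.19 ± 0.22 without (adjusted p = 0.826). The difference between those values, the interaction, was −0.84 ± 0.32, with an unadjusted p of 0.0144 and an adjusted p of 0.537. The averaged call was lost without any one of 5 libraries: 37C inhibitor B, 37C no inhibitor B, 4C inhibitor A, 4C inhibitor B (log2 fold change −0.31) and 4C no inhibitor B (−0.32). The call with inhibitor was lost without 37C inhibitor B or 4C inhibitor B (−0.52).

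Both genes stood far higher in lymphocytes than in tumour cells, and the lymphocyte share differed between the temperatures in the same libraries. T and NK cells gave 13.6% and 5.63% of the UMIs in 37C with inhibitor, 27.8% and 18.6% in 37C without, 30.1% and 40.9% in 4C with inhibitor, and 31.8% and 28.3% in 4C without. Macrophages also stood above tumour cells, by 4.71-fold for Tmsb4x and 64.7-fold for Coro1a. Their share moved the other way, with 14.8% to 30.8% of assigned cells at 37C and 2.94% to 13.6% at 4C. Tested with limma on the cells as found, the log2 fold change was −1.44 for Coro1a (adjusted p = 0.0279) and −0.65 for Tmsb4x (adjusted p = 0.0903). With each library rebuilt to the same makeup of cell types and the same limma test, it was −1.01 for Coro1a (adjusted p = 0.102) and −0.18 for Tmsb4x (adjusted p = 0.668), and no member passed. The rebuild gives a type the same weight in every library, also where it is 1 macrophage (4C inhibitor A) or 2 NK cells (37C inhibitor B). The part of the noise from so few cells in these values was not tested.

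**Figure D2:**
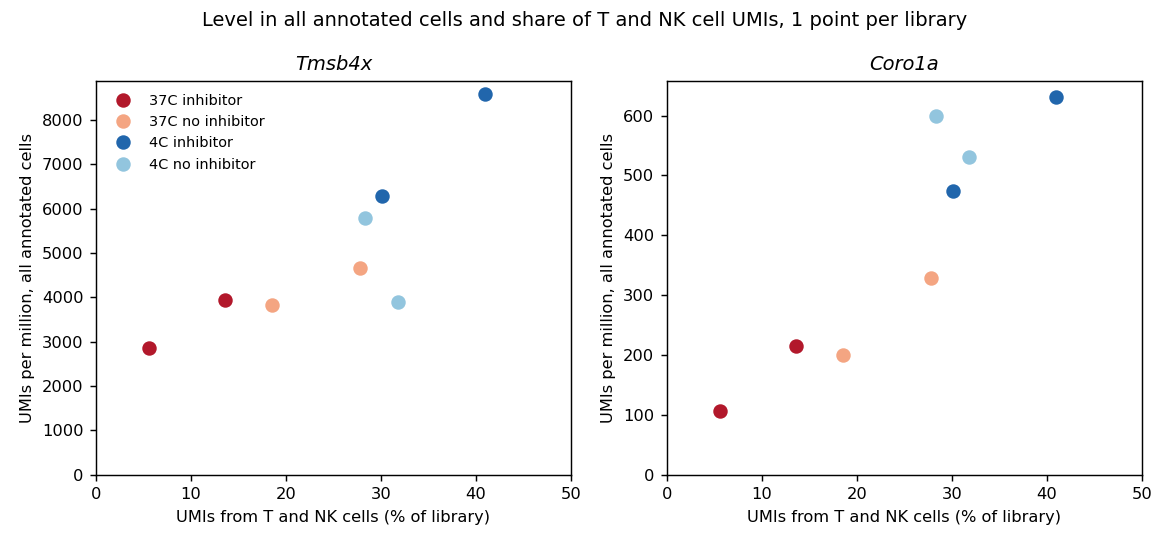
Level of Tmsb4x (left) and Coro1a (right) in all assigned cells, in CPM, against the percent of the library's UMIs that came from T and NK cells; each point is 1 of 8 libraries, coloured by group. The libraries with the lowest and the highest lymphocyte share, 37C inhibitor B (5.63%) and 4C inhibitor B (40.9%), are also the lowest and the highest for both genes.

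The other 7 tested genes did not pass. Actb had 6714 to 8951 CPM at 37C and 5203 to 8277 CPM at 4C, a log2 fold change of 0.37 ± 0.13 (adjusted p = 0.118). It passed without 4C inhibitor B (0.66, adjusted p = 0.0214) or 4C no inhibitor A (0.56, adjusted p = 0.00464). Pfn1 had 1416 to 1574 CPM at 37C and 936 to 1508 CPM at 4C, with 0.26 ± 0.18 (adjusted p = 0.519). Tmsb10 had the largest positive value, 0.64 ± 0.31 (adjusted p = 0.316). Arpc2, Cfl1, Arpc1b and Actr2 lay between −0.25 (Actr2) and 0.31 (Cfl1), and each overlapped between temperatures.

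Split by inhibitor, 2 of the 9 members passed with inhibitor, Coro1a and Tmsb4x, where 1.8% of all genes passed. Without inhibitor 0 of 9 passed (1.06% of all genes); Coro1a and Actb had unadjusted p below 0.05, and DESeq2 also called 0.

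**Figure D3:**
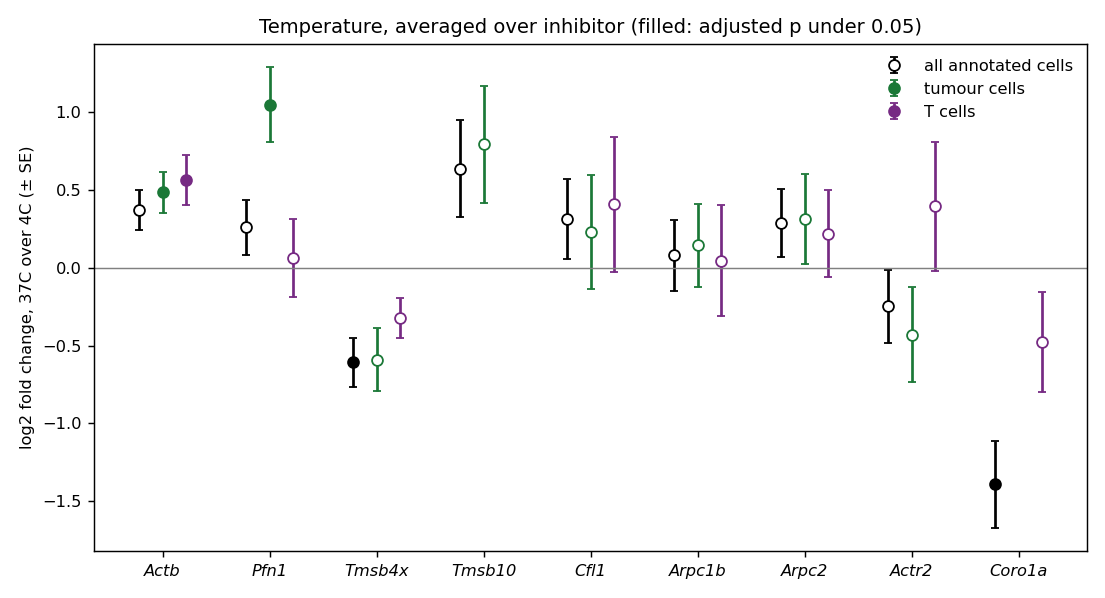
Log2 fold change of each gene at 37C over 4C, averaged over inhibitor, in all assigned cells (black), tumour cells (green) and T cells (purple); bars are ± 1 SE and filled points have an adjusted p under 0.05. Coro1a and Tmsb4x are filled below 0 in all assigned cells, while the filled points within a single type, Actb and Pfn1 in tumour cells and Actb in T cells, lie above 0.

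Within tumour cells alone, actin and profilin RNA were higher at 37C. With edgeR's test over 1756 genes, 25 genes (1.42%) passed for temperature averaged over inhibitor, and 2 of the 8 actin genes tested did, Pfn1 and Actb, both higher at 37C. Coro1a and Actg1 were too low in tumour cells to be tested.

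Pfn1 had 881 and 1279 CPM in 37C with inhibitor, 984 and 965 CPM in 37C without, 602 and 467 CPM in 4C with inhibitor, and 499 and 463 CPM in 4C without. Every 37C library lay above every 4C library, and the 2 inhibitor arms were alike in size: 1.10 ± 0.36 with inhibitor (adjusted p = 0.290) and 1.00 ± 0.32 without (adjusted p = 0.0955) on the log2 scale, with an interaction of 0.09 ± 0.50. Averaged, the log2 fold change was 1.05 ± 0.24 (adjusted p = 0.0101). It was 0.93 without 37C inhibitor library B (adjusted p = 0.0726). With the 30 cells that held more leukocyte than epithelial marker UMIs left out, it was 1.33 (adjusted p = 0.000883, edgeR). In barcodes under 100 UMIs the order was the opposite, 1385 CPM at 37C and 1876 CPM at 4C.

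Actb had 6659 and 6577 CPM in 37C with inhibitor, 5905 and 4710 CPM in 37C without, 3810 and 5225 CPM in 4C with inhibitor, and 4656 and 3350 CPM in 4C without. The ranges overlapped between 37C no inhibitor B and 4C inhibitor B. The log2 fold change was 0.49 ± 0.13 (adjusted p = 0.0398). This call sat near the threshold: it was lost without 37C inhibitor A, 37C inhibitor B, 37C no inhibitor A or 4C inhibitor A. Barcodes under 100 UMIs moved the same way, with 11915 CPM at 37C and 7479 CPM at 4C, and the part of free RNA in the difference was not tested. Macrophage markers in the same tumour cells ran at 237 and 400 CPM in 37C with inhibitor. In 37C without inhibitor they ran at 57.2 and 79.7 CPM, within the 42.5 to 88.2 CPM of the 4C libraries. With the 30 cells left out, the log2 fold change of Actb was 0.50 (adjusted p = 0.0430, edgeR).

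Tmsb4x had 1288 and 1386 CPM in 37C with inhibitor, 1167 and 841 CPM in 37C without, 2139 and 1147 CPM in 4C with inhibitor, and 1197 and 2601 CPM in 4C without. In each 4C suspension, 1 aliquot lay well above the other, and the other lay within the range of the 37C libraries. Without inhibitor it was lower at 37C, by a log2 fold change of −0.99 ± 0.27 (adjusted p = 0.0341), the only one of the 8 members to pass there, where 2.11% of genes passed. That call rests on 4C no inhibitor library B: without it the value was −0.15 (adjusted p = 0.918), and it was also lost without 37C no inhibitor B (−0.76). In this library the Tmsb4x UMIs came from 27 of 33 tumour cells, the highest of which held 15.3% of them. With inhibitor the value was −0.19 ± 0.30, and 0 of 8 members passed (0.0569% of genes), with Pfn1 and Actb at an unadjusted p below 0.05 and 0 members by DESeq2. T cell markers in tumour cells ran at 8.47 to 40.0 CPM at 37C (10 UMIs) and 42.5 to 267 CPM at 4C (12 UMIs). The highest, in 4C inhibitor A, was 4 UMIs. NK cell markers gave 13 UMIs at 37C and 8 at 4C, all 8 of them in 4C no inhibitor library B (176 CPM). The part of lymphocyte RNA in the Tmsb4x values was not tested.

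The ratio of Actb to Tmsb4x did not overlap between the temperatures in tumour cells, but the gap was narrow. The Actb to Tmsb4x UMI ratio was 4.75 to 5.60 in the 4 libraries at 37C and 1.29 to 4.56 in the 4 at 4C. The highest at 4C, in 4C inhibitor B, was 123 Actb over 27 Tmsb4x UMIs. Aliquots of 1 suspension differed widely at 4C, with 1.78 and 4.56 with inhibitor and 3.89 and 1.29 without. No test was run on the ratio. In T cells the ranges overlapped, at 0.820 to 1.43 at 37C and 0.450 to 1.05 at 4C.

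The remaining 5 genes tested in tumour cells did not pass. Tmsb10 had 263 to 413 CPM at 37C and 99.8 to 309 CPM at 4C, with a log2 fold change of 0.79 ± 0.38 (adjusted p = 0.347). Actr2 had 252 to 336 CPM at 37C and 309 to 510 CPM at 4C, with −0.43 ± 0.31 (adjusted p = 0.584). Arpc2, Cfl1 and Arpc1b had values of 0.31 ± 0.29, 0.23 ± 0.36 and 0.15 ± 0.27 in that order.

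**Figure D4:**
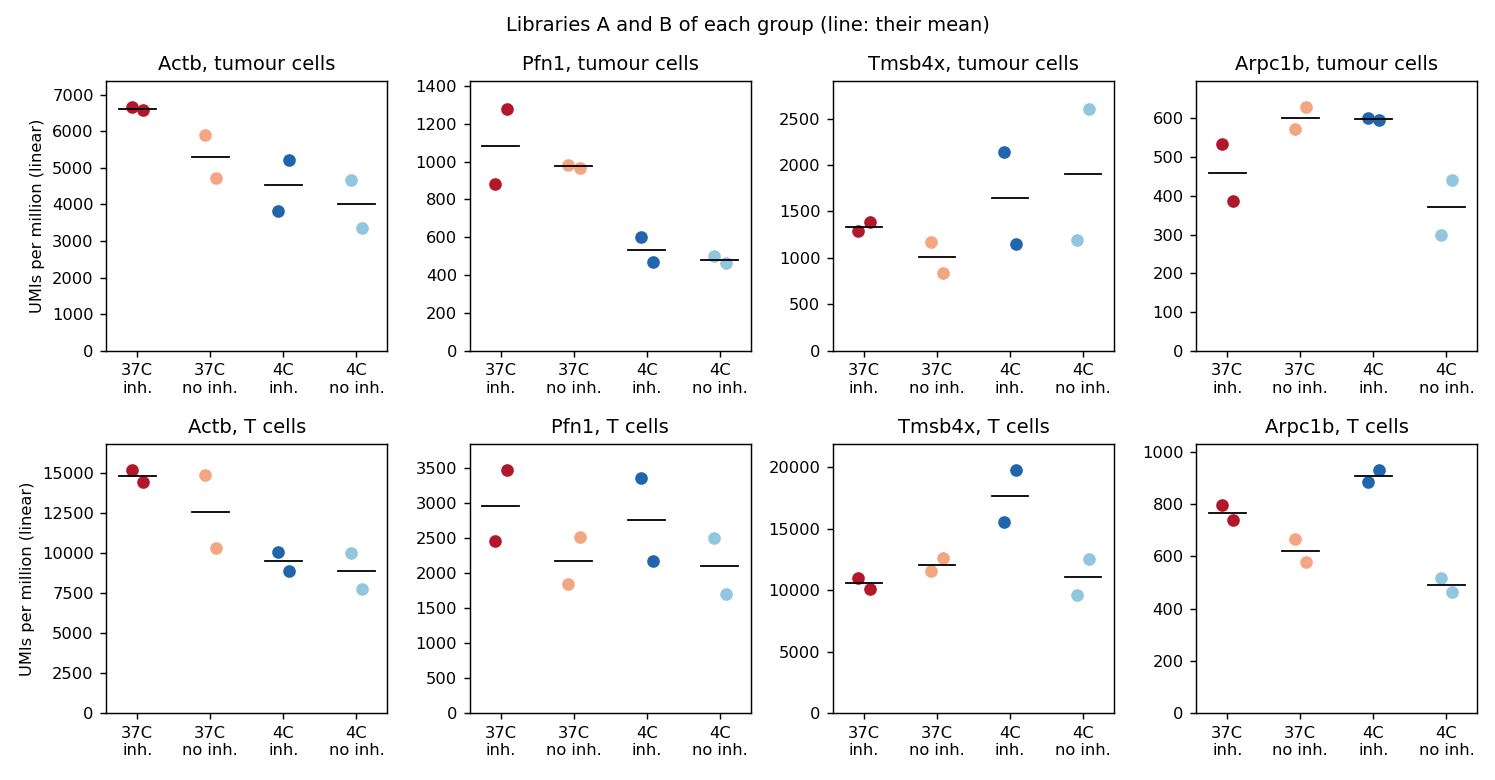
CPM (linear axes from 0) of Actb, Pfn1, Tmsb4x and Arpc1b in tumour cells (top) and T cells (bottom) of the 4 groups; points are libraries A and B and lines their mean. In tumour cells all 4 points of Pfn1 at 37C (881 to 1279) lie above all 4 at 4C (463 to 602), and in T cells the same holds for Actb (10351 to 15217 against 7762 to 10078).

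Within T cells Actb was again higher at 37C. It had 15217 and 14432 CPM in 37C with inhibitor, 14861 and 10351 CPM in 37C without, 10078 and 8896 CPM in 4C with inhibitor, and 10021 and 7762 CPM in 4C without. The temperatures did not overlap, though 37C no inhibitor B lay close to the 4C libraries. The log2 fold change was 0.57 ± 0.16 (adjusted p = 0.0439, edgeR over 230 genes), the only one of 8 members tested to pass where 9.57% of the genes did. The call was lost without any one of 6 of the 8 libraries, the exceptions being 37C no inhibitor B and 4C no inhibitor A. In these T cells B cell markers gave 58 UMIs in the 37C libraries, against 2 in the 4C libraries, and the dendritic list gave 78 and 3. Most of these lay in 37C without inhibitor. B cell markers gave 19 and 34 UMIs there, against 2 and 3 in 37C with inhibitor, and the dendritic list 34 and 44, against 0 and 0. The highest for both lists, 37C no inhibitor B, had the lowest Actb of the 37C libraries. Of the 81 UMIs of the dendritic list in T cells, 70 were Ccr7, while Clec9a and Cd209a were at 0. A further fit left out the 8 cells with more marker UMIs of other types, NK cells aside, than of T cells. It gave a log2 fold change of 0.61 (adjusted p = 0.0504, edgeR). Barcodes under 100 UMIs moved the same way here too.

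Tmsb4x in T cells had 10984 and 10113 CPM in 37C with inhibitor, 11527 and 12619 CPM in 37C without, 15559 and 19758 CPM in 4C with inhibitor, and 9589 and 12496 CPM in 4C without. The 2 libraries of 4C with inhibitor were the highest, and the other 6 overlapped. The averaged log2 fold change was −0.32 ± 0.13 (adjusted p = 0.143). With inhibitor it was −0.74 ± 0.19 (adjusted p = 0.0516) and without it 0.09 ± 0.18 (adjusted p = 0.884). The interaction of −0.83 ± 0.26 had an unadjusted p of 0.00513 and an adjusted p of 0.278.

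Pfn1 in T cells had 1842 to 3476 CPM at 37C and 1708 to 3359 CPM at 4C, with a log2 fold change of 0.06 ± 0.25 (adjusted p = 0.900). Whether the temperature difference of Pfn1 differed between tumour cells and T cells was not tested. Coro1a in T cells had 632 to 984 CPM at 37C and 828 to 1708 CPM at 4C, with −0.48 ± 0.32 (adjusted p = 0.394). Arpc2, Actr2, Arpc1b and Cfl1 had values from 0.05 (Arpc1b) to 0.41 (Cfl1), all within 1 SE of 0. Tmsb10 was too low in T cells to be tested. With and without inhibitor taken apart, 0 of 8 members passed in T cells, as did 0.435% of genes in each case; DESeq2 also called 0, and at an unadjusted p below 0.05 there were 2 with inhibitor and 0 without.

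NK cells and macrophages had under 10 cells in several libraries, NK cells at both temperatures, so no test was run within them, and their pooled levels are given with Poisson intervals for counting error. Actb had 12624 CPM at 37C (11408 to 13934) and 13180 CPM at 4C (11658 to 14847) in NK cells. In macrophages it had 11525 CPM at 37C (10964 to 12107) and 9159 CPM at 4C (7468 to 11118). Coro1a was lower at 37C in both types by these sums, with 673 CPM at 37C (417 to 1029) and 2043 CPM at 4C (1472 to 2761) in NK cells, and 386 CPM (289 to 505) and 1167 CPM (622 to 1996) in macrophages. The 4C macrophage value of Coro1a rests on 13 UMIs in 17 cells. Of the 9 macrophages with more mast than macrophage marker UMIs, 5 were at 37C and 4 were among these 17 at 4C. Those 9 cells had 6417 CPM of Actb and 295 CPM of Coro1a, against 11843 and 459 CPM in the other macrophages. Their part in the macrophage values by temperature was not tested.

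The second factor was actinomycin D, an inhibitor of transcription present during the dissociation. None of the 9 members passed in either comparison with and without it. At 37C, where 1.21% of all genes passed, 0 of 9 members did, 0 had an unadjusted p below 0.05, and DESeq2 called 0. Actb had a log2 fold change of 0.15 ± 0.18 with inhibitor over without at 37C, Pfn1 0.13 ± 0.24, Tmsb4x −0.29 ± 0.22 and Coro1a −0.68 ± 0.37 (adjusted p = 0.713). A missed threshold does not show equal levels, and the SE of these 4 values ran from 0.18 to 0.37.

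At 4C, 0 of 3391 genes passed the inhibitor comparison (0%); 172 genes had an unadjusted p below 0.05, DESeq2 called 0 genes and limma 1. Among those 172 were 2 members, Arpc1b at 0.75 ± 0.35 and Tmsb4x at 0.55 ± 0.23 on the log2 scale, both with an adjusted p of 0.913. For the interaction of temperature and inhibitor 0 genes passed (0%), 250 had an unadjusted p below 0.05, DESeq2 called 0 and limma 1; Tmsb4x was the only member among the 250.

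Within tumour cells 0.911% of genes passed for the inhibitor at 37C, with 0 of 8 members, and 0% at 4C and for the interaction. In T cells 0.87% of genes passed at 37C, with 0 of 8 members, and 0% at 4C and for the interaction. Tumour cells had 107, 90 and 121 genes at an unadjusted p below 0.05 for the inhibitor at 37C, at 4C and the interaction. The T cell counts were 18, 14 and 12. Tmsb4x was the only member among them (edgeR). Its interaction in tumour cells was 0.81 ± 0.40 (unadjusted p = 0.0485, adjusted p = 0.714). That sign was opposite to the one in T cells and over all assigned cells. For the inhibitor at 4C in T cells Tmsb4x had 0.58 ± 0.19 (unadjusted p = 0.00628, adjusted p = 0.679). DESeq2 called 1 gene in each type at 37C and 0 in the other comparisons, and no member.

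Arpc1b was the member for which the libraries separated by temperature in opposite directions with and without inhibitor; the fitted values of Arpc2 and Cfl1 in tumour cells and of Cfl1 and Tmsb4x in T cells also differed in sign between the arms, with overlap in at least 1 arm. In tumour cells it had 534 and 386 CPM in 37C with inhibitor, 572 and 629 CPM in 37C without, 602 and 595 CPM in 4C with inhibitor, and 299 and 441 CPM in 4C without. It was lower at 37C with inhibitor and higher at 37C without, with no overlap on either side. The test of that difference did not pass, at −0.98 ± 0.54 on the log2 scale (unadjusted p = 0.0748, adjusted p = 0.794). The 4C values rest on 9 and 14 UMIs with inhibitor and 9 and 20 without. How many of all genes separate in this way was not counted.

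The wider actin pathway was read through 7 lists of 107 genes, of which 83 could be tested over all assigned cells. For temperature averaged over inhibitor 1 of the 83 passed, Anxa2, a membrane-linked actin and calcium binder, which was higher at 37C by 0.75 ± 0.19 on the log2 scale (adjusted p = 0.0273). The background was 3.98% of genes, so the share of the lists was below that of all genes, and Anxa2 was not called without 37C no inhibitor A, 37C no inhibitor B or 4C inhibitor B. With inhibitor, 1 passed lower at 37C, Fmnl1, a leukocyte formin, at −1.96 ± 0.48 (adjusted p = 0.0341). The list medians for the averaged comparison ran from −0.25 over 17 filament bundling and elongation genes to 0.31 over 12 membrane and adhesion linkers, beside 0.04 over all genes. The 2 most abundant genes of 3 lists had these values: Arpc5 0.05 and Actr3 0.02 in the ARP2/3 complex, Cotl1 0.04 and Gsn 0.26 among the monomer binding and severing proteins, and Tagln2 0.18 and Flna 0.29 among the filament bundlers.

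The myosin and tropomyosin list was led in abundance by Myl12a (0.37) and Cnn2 (−0.32). Anxa1, the second most abundant of the membrane linkers, had 0.32. Of the 5 genes of the SRF list, 1 could be tested, Srf itself, at 0.11. In a comparison list of tubulins and intermediate filaments, 8 of 11 genes were tested and all 8 had positive values, with a median of 0.53; 1 passed, Tuba1c, an alpha tubulin, at 1.10 ± 0.31 (adjusted p = 0.0463), while Vim had 0.08 and Tubb5 0.33.

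Within types, 53 of the 107 pathway genes could be tested in tumour cells and 14 in T cells. In tumour cells Anxa2 was higher at 37C, at 0.80 ± 0.20 averaged over inhibitor (adjusted p = 0.0222), and without inhibitor Anxa2 (1.09 ± 0.27, adjusted p = 0.0181) and Tagln2, a transgelin (1.14 ± 0.30, adjusted p = 0.0264), both passed. These were 1.89% of the list genes tested against 1.42% of all genes, and 3.77% against 2.11% without inhibitor. Tuba1b of the tubulin list was higher at 37C in tumour cells, at 1.50 ± 0.38 (adjusted p = 0.0267). In T cells Rac2 was higher at 37C, at 0.99 ± 0.28 (adjusted p = 0.0425), against −0.15 over all assigned cells, which did not pass; it was 7.14% of the list genes tested in T cells, against 9.57% of all genes.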

How the data were processed

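Single-cell 3′ RNA libraries of 8 tumour cell aliquots were read from the deposited tables of raw UMI counts, 1 per library, and from a deposited table of natural log values, of which 99.99% matched ln(1 + a scaled count), with 1 scale per cell, within a tolerance of 0.001. Per the submitters' processing notes, the authors used UMI-tools, STAR 2.7.1a, featureCounts 1.6.0, SAMtools and Seurat with GRCm38; the settings, the filter on cells and the treatment of doublets are not stated in the sources used here, and no doublet caller was run. Cell types are the authors' deposited annotation. Of 17580 gene identifiers, 17520 matched GENCODE M21 names, 12505 with their version and 5015 without it.

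Counts of assigned cells were summed per library, over all types and within tumour cells and T cells, the 2 types for which no library had fewer than 10 cells. The sums were filtered with filterByExpr, scaled by TMM and fitted to the 4 groups with edgeR 4.0.16 in R 4.3.3 (quasi-likelihood F test, two-sided, Benjamini-Hochberg adjustment over all genes tested, threshold 0.05). Alternatives used limma 3.58.1 on log2(CPM + 10) and DESeq2 1.42.0. Other steps used Python 3.11.15, pandas 2.3.3 and SciPy 1.17.1. Intervals are exact Poisson intervals at 95%, and 3 counts set the floor; both cover counting error only. The fits were also run on counts simulated with known changes. Those libraries were independent, with the same dispersion for all genes and no shift in cell types. This checked the code and not the calls above.

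Named genes were all 10 members; of the other lists, every gene called over all assigned cells and the 2 most abundant of each list, except 1 list whose description is not reported here; and the 3 genes closest in pattern to each of Actb, Tmsb4x, Cfl1 and Coro1a. Tuba1b, Tagln2 and Rac2 are named within a type because they passed there, a choice made after their values were seen. The members, lists and tests were chosen with earlier results of these data known. Leaving out cells whose markers go against their type or that are rich in mast cell markers, the interaction within a type, and limma on the cells as found were chosen after seeing the data. Aliquots A and B of 1 suspension differed by more than sampling noise (chi-square per degree of freedom 1.53 to 2.05), so both were kept as separate libraries.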

Additional observations from a re-analysis of the deposited data

Results flagged for a closer look

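Among 51 groups of 4 libraries (1 gene, 1 set of cells and 1 temperature), 3 held a library far from the other 3; chance alone gives about 1 in 20. In T cells at 37C, Actb in no inhibitor library B was low, at 10351 CPM. In the same T cells of that library, Tmsb10 was high, at 948 CPM. In tumour cells at 37C, Cfl1 in inhibitor library B was high, at 433 CPM; this is the library in which 16 of 76 tumour cells held more leukocyte than epithelial markers, and their part in the Cfl1 value was not tested.

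Arpc1b was the member for which all libraries moved one way with inhibitor and the opposite way without it, among 27 pairs of a gene and a set of cells looked at. The ratio of 37C over 4C was 0.723 with inhibitor and 1.44 without over all assigned cells, 0.769 and 1.62 in tumour cells, and 0.846 and 1.26 in T cells. These sets share libraries and, in part, cells. The interaction term of edgeR did not pass in any of them (adjusted p = 0.689, 0.794 and 0.978 in the same order). In T cells the 4C values rest on 5 and 9 UMIs with inhibitor and 6 and 6 without. The share of all genes that separate in this way was not counted, so the pattern is not set apart from sampling.

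Barcodes without an assigned type were outside the comparisons and also held these genes. The 10 genes together made up 1.99% of UMIs in the 22080 barcodes under 100 UMIs, 1.69% in the 696 barcodes of 200 to 5000 UMIs and 0.957% in the 105 barcodes over 5000 UMIs. In the last class Tmsb4x stood at 968 CPM and Coro1a at 9.46 CPM, near the tumour cell levels of 1322 and 6.87 CPM.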

How the results depend on the processing

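Over the 5 comparisons with at least 1 member called, 44 of 82 recomputed counts were within 1.5 times the count given; over those with 0 called, 191 of 203 stayed at 0. Over all assigned cells, the 2 members lower at 37C on average became 1 with DESeq2, 1 when thinned to the smallest total, 1 with limma in place of edgeR and 0 with limma at the same cell type composition; leaving out 1 library gave 1 to 3. With inhibitor the 2 became 1 with no filter, 1 when thinned, 0 with limma and 0 with limma at the same composition, and 0 to 2 without 1 library; without inhibitor the 0 became 1 over all barcodes. In tumour cells the 2 became 1 with aliquots summed, DESeq2 or library totals and 0 when thinned, and 0 to 2 without 1 library. There the 1 without inhibitor became 0 with DESeq2 or thinned, 2 with cells against their type left out, and 0 to 2 without 1 library, and the 0 with inhibitor became 2 with no filter and 0 to 2 without 1 library. In T cells the 1 became 0 with DESeq2, library totals or cells against their type left out, and 0 to 1 without 1 library. There the 0 with inhibitor became 1 with library totals, 2 when thinned and 0 to 2 without 1 library, the 0 without inhibitor 0 to 1 without 1 library, and the 0 of the interaction 1 when thinned.

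Of the 231 single values, 3 turned direction: Pfn1 over all assigned cells was −0.13 when thinned and −0.38 over all barcodes (adjusted p = 0.0405), and Tmsb4x in T cells was 0.094 with no filter. With no filter the median of all genes itself was 0.53 over all assigned cells, 0.79 in tumour cells and 0.53 in T cells. The 1 gene of the other actin lists became 0 with DESeq2, with aliquots summed, when thinned, with limma or with limma at the same composition, 3 with no filter, 32 over all barcodes, and 0 to 3 without 1 library. Genes called over all features moved more: 135 over all assigned cells ran from 10 to 1290, 25 in tumour cells from 1 to 120 and 22 in T cells from 2 to 25. The 8 of 9 genes lowest in tumour cells became 7 on the deposited normalised values and 9 in cells with at least 500 UMIs. The causes were not tested.

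The letters A and B name aliquots of 1 suspension, and no label ties a letter to a shared batch. Over 1696 genes the correlation of A minus B between groups was 0.37, 0.17 and 0.16 for 3 pairs of groups and 0.007 to 0.065 for the other 3, so not every pair passed 0.1 and the letter was not used as a block in the main test. With the letter as a replicate block, the members called in T cells with inhibitor were 2 in place of 0, Tmsb4x (−0.73, adjusted p = 0.0114) and Actb (0.64, adjusted p = 0.0310); no other count of members moved. Depth limits the 4C libraries most, and few cells limit macrophages (1 to 8 in each 4C library) and NK cells (2 to 12 in each 37C library and 3 to 14 in each 4C library).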
